A study of Homo sapiens with 8 samples.

Results

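Ferroptosis is a form of cell death driven by iron-dependent peroxidation of membrane phospholipids. Its best known brake is the glutathione peroxidase GPX4, and a second line of defence works without glutathione by keeping lipid-soluble radical scavengers reduced, by changing which acyl chains the membrane holds, or by lowering free iron. The 10 genes described here belong to that second line: AIFM2, VKORC1L1, DHODH, COQ2, PDSS2, GCH1, MBOAT1, MBOAT2, PROM2 and NFS1. They were chosen by name, with earlier results of these data known, and each matched 1 row of the 57169 in the table. All 10 were among the 21378 genes with enough counts to be tested.

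RNA was sequenced from 2 human colorectal carcinoma lines, HCT116 and SW620, of which SW620 derives from a lymph node metastasis. Cells of both lines received free 5-fluorouracil (5-FU), an inhibitor of thymidylate synthase, or AFZC, for 24 hours at the IC50 of each agent. By the series title AFZC can be read as an aptamer-coated metal-organic framework loaded with 5-FU, so both arms contained 5-FU, and untreated cells were not analysed here. The 4 groups (HCT116 with 5-FU, HCT116 with AFZC, SW620 with 5-FU, SW620 with AFZC) had 2 libraries each. Whether the libraries of a group are independent cultures is not labelled, so the p-values reflect only library-to-library spread, possibly technical.

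Library totals ran from 31991561 to 40590291 counts. Levels are given as CPM, counts scaled to 1e6 per library after TMM scaling, and as RPKM, the same per kilobase of gene model, wherever different genes are compared. Epithelial markers (EPCAM, KRT8, KRT18, KRT19, CDH1, VIL1 and CDX2) summed to 3500 to 4330 CPM in HCT116 with 5-FU and 4890 to 7950 with AFZC. In SW620 they summed to 15200 to 16500 CPM with 5-FU and 5020 to 5460 with AFZC, a fall that was led by keratins. VIL1 was nearly absent from HCT116 (0 to 1.96 CPM). Of 13 markers of fibroblasts, immune cells and endothelium, PTPRC and CD3E were at most 0.0689 CPM in every library, while LYZ was at 5.37 and 7.7 CPM in SW620 with 5-FU and 40.4 and 15.7 with AFZC. Fibroblast markers summed to 40.1 to 71.6 CPM over all groups, from COL1A1 in both lines and LUM in SW620, with COL1A2 and DCN near 0. Endothelial markers summed to 3.14 to 5.22 CPM in HCT116, 5.26 to 5.51 in SW620 with 5-FU and 13.6 to 18.3 with AFZC. The part of these shifts in the results below was not tested.

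The members act at different points. AIFM2 (also called FSP1) is a myristoylated oxidoreductase that reduces coenzyme Q and vitamin K at membranes. VKORC1L1 reduces vitamin K to its hydroquinone. DHODH reduces coenzyme Q in the inner mitochondrial membrane while it makes orotate for pyrimidine synthesis. PDSS2 helps to build the polyprenyl tail of coenzyme Q, and COQ2 joins that tail to the ring. GCH1 starts the synthesis of tetrahydrobiopterin, a further radical scavenger. MBOAT1 and MBOAT2 put monounsaturated acyl chains on phospholipids. PROM2 is a membrane prominin that helps cells export ferritin in vesicles, and NFS1 is the cysteine desulfurase that supplies sulfur for iron-sulfur clusters.

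The promoter windows of AIFM2, PROM2 and COQ2 are shown because these 3 members passed the test for AFZC against 5-FU in at least 1 line. RefSeq windows on GRCh38.p14 were found for 8 of the 10 members, not for GCH1 or MBOAT1. Each runs 5′ to 3′ on the gene's strand, from 250 bases before the start to 50 after it. Capitals mark matches to any of 7 motifs, searched on both strands. The GC box was searched as GGGCGG, the pentamer of the nuclear factor Y site as CCAAT and the core promoter element bound by the TATA-binding protein as TATAAA. The E-box bound by basic helix-loop-helix factors was searched as CACGTG, the core of the antioxidant response element as TGACNNNGC and the core of the heat shock element as GAANNTTC. The last of the 7 was the p53 decamer. AIFM2 lies at chr10:70132776-70133075 (minus strand), PROM2 at chr2:95274199-95274498 (plus strand) and COQ2 at chr4:83284749-83285048 (minus strand).
AIFM2: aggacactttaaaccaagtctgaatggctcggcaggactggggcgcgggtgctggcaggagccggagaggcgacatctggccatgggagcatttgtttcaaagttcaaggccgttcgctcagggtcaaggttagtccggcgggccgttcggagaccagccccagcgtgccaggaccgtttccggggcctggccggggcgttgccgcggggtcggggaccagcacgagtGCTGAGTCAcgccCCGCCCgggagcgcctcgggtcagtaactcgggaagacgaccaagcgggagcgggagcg
PROM2: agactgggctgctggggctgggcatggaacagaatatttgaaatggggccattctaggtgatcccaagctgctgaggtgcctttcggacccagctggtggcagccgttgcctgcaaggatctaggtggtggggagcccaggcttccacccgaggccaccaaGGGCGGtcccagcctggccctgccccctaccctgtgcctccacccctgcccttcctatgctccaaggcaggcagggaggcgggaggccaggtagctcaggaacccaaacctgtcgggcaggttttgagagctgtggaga
COQ2: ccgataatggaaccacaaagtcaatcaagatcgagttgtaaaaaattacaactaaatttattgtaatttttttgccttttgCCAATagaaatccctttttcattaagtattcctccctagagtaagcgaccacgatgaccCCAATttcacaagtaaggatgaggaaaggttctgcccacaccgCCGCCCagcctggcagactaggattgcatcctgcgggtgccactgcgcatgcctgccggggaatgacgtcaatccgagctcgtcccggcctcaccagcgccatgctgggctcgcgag
The AIFM2 window held 1 antioxidant response element core, with its first base at position -22 when the first transcribed base is 0, and 1 GC box beside it without overlap. The PROM2 window held 1 GC box and no match to the other 6 motifs. The COQ2 window held 2 CCAAT boxes and 1 GC box. Among 35116 windows of the same length, 13.3% held the antioxidant core, 45% a GC box, 34.6% a CCAAT box, 11.5% a TATA box, 7.26% an E-box, 6.77% the heat shock core and 6.63% the p53 decamer. GC content was 67% for AIFM2, 63.3% for PROM2 and 49.7% for COQ2, against a median of 58.7%. The windows held 30, 6 and 16 CpG dinucleotides in that order.

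The members differed widely in level. In HCT116 with 5-FU, GCH1 was at 13.5 ± 0.203 RPKM (SD, n = 2) and VKORC1L1 at 13 ± 0.157, ahead of AIFM2 at 5.77 ± 0.0768 and MBOAT2 at 5.28 ± 0.0572. PDSS2, COQ2, DHODH, NFS1 and MBOAT1 lay between 2.85 and 4.28 RPKM, and PROM2 was lowest at 1.99 ± 0.311. In SW620 with 5-FU the order began with AIFM2 at 30.5 ± 2.78 RPKM, then MBOAT2 at 20.9 ± 3.53, VKORC1L1 at 15.4 ± 0.344 and GCH1 at 13.6 ± 0.315. PROM2 was again lowest, at 0.0377 ± 0.011 RPKM.

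**Figure D1:**
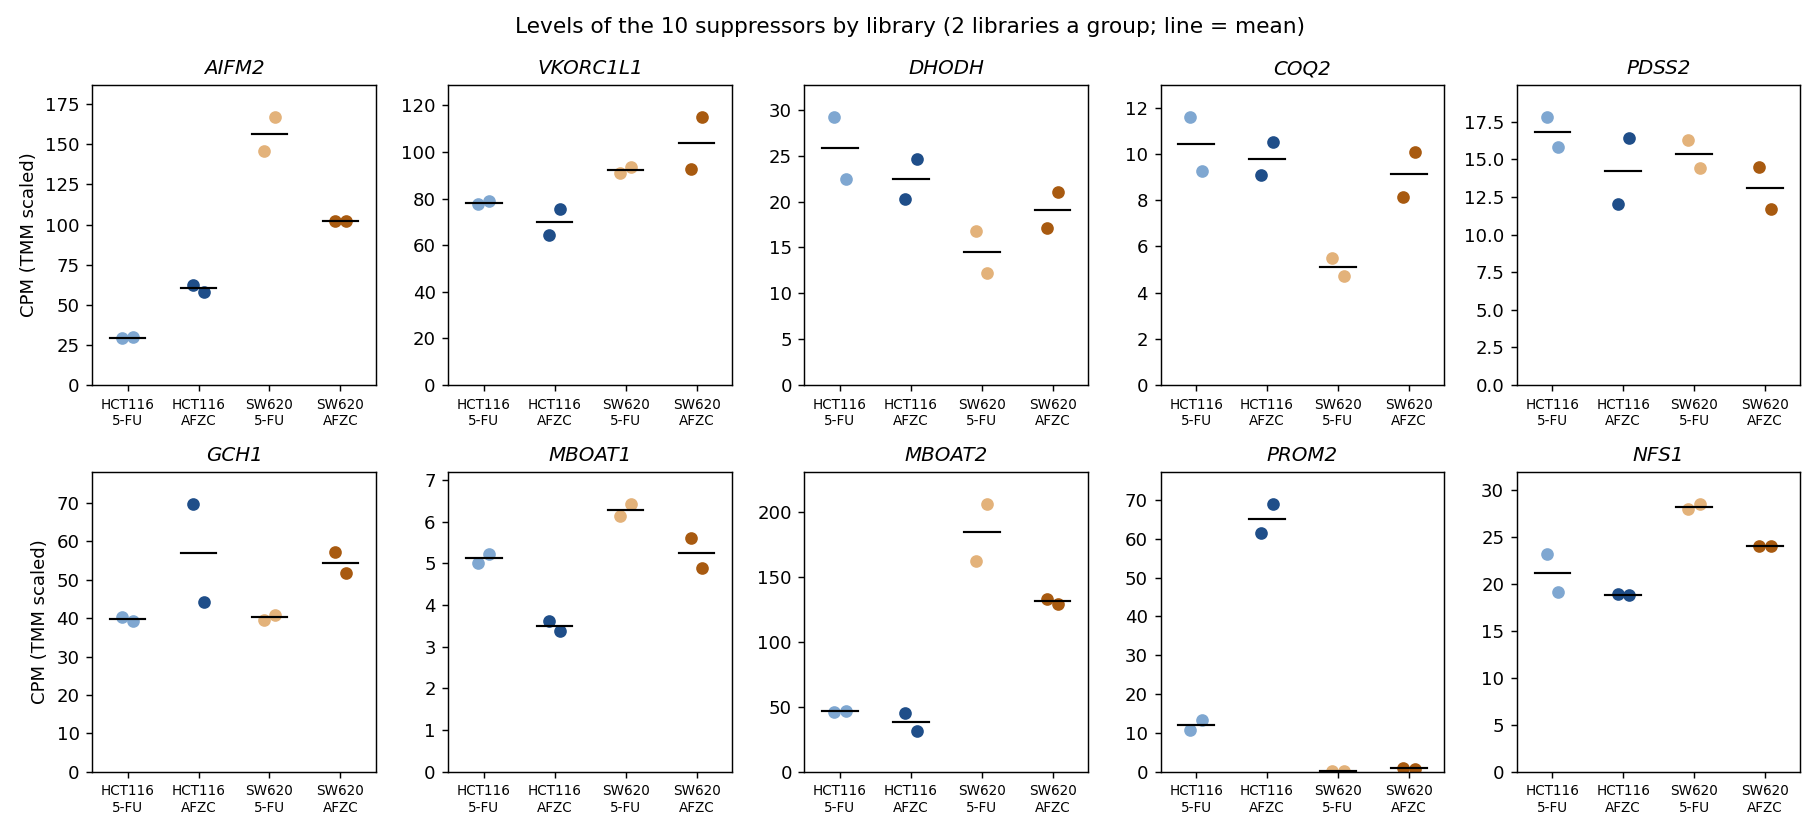
Levels of the 10 suppressors in each library, in TMM-scaled CPM on linear axes that start at 0. Each point is 1 library and each line the mean of a group of 2. AIFM2 is near 30 CPM in HCT116 with 5-FU and above 140 in SW620 with 5-FU, while PROM2 is at most 1.1 CPM in every SW620 library.

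The first question was what AFZC changed among these genes in HCT116, relative to 5-FU. PROM2 and AIFM2 rose, and none of the other 8 members passed the test in either direction. The 2 calls among 10 members stand beside 5.87% of all tested genes called higher and 3.74% called lower (9.61% in either direction). The median log2 fold change of the members was -0.16, against 0 for all genes tested. In such bulk samples a change in the share of cells that express a gene and a change in RNA per cell cannot be told apart. With 2 libraries a group, a lack of overlap between groups says little by itself. GCH1, MBOAT1, MBOAT2 and NFS1 had no overlap in either line and passed in neither.

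PROM2 (chromosome 2, 95274453 to 95291308, GRCh38) was at 10.8 and 13.4 CPM in the HCT116 libraries with 5-FU and at 61.4 and 69 CPM with AFZC. The groups were far apart, and both AFZC libraries were high. The log2 fold change was 2.43 ± 0.239 (SE, adjusted p = 0.000118), a 5.39-fold rise, and 4.48% of all tested genes moved at least as far in either direction. The call held in all 15 alternative settings, with log2 fold changes of 2.28 to 2.58 and a highest adjusted p of 0.0108.

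AIFM2 (chromosome 10, 70098223 to 70132934) was at 29.3 and 29.9 CPM with 5-FU and at 62.4 and 58 CPM with AFZC in HCT116. The libraries of each group lay close together and the groups did not overlap. Its log2 fold change of 1.02 ± 0.144 (adjusted p = 0.00117) was a 2.03-fold rise, matched or exceeded in size by 17.6% of tested genes. The call held in all 15 alternatives (log2 fold change 0.96 to 1.05, highest adjusted p 0.0315).

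GCH1 was at 40.2 and 39.3 CPM with 5-FU and at 69.8 and 44.1 with AFZC in HCT116. Replicate 1 of AFZC was well above the other 3 libraries, and replicate 2 only slightly above 5-FU. Its log2 fold change of 0.52 ± 0.196 did not pass the test (adjusted p = 0.116). Without replicate 1 of AFZC it was 0.14 (adjusted p = 0.793), and without replicate 2 it was 0.79 (adjusted p = 0.0102), so the value rests on which AFZC library is kept.

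The acyltransferases did not pass the test in HCT116. MBOAT1 was at 5.02 and 5.22 CPM with 5-FU and at 3.63 and 3.38 with AFZC, a log2 fold change of -0.54 ± 0.28 (95% interval -1.15 to 0.06, adjusted p = 0.256). MBOAT2 was at 46.1 and 46.8 CPM with 5-FU and at 44.9 and 31.5 with AFZC, a log2 fold change of -0.28 (interval -0.68 to 0.11, adjusted p = 0.379). The remaining 5 members, VKORC1L1, DHODH, COQ2, PDSS2 and NFS1, had log2 fold changes of -0.16, -0.20, -0.09, -0.24 and -0.17 (adjusted p = 0.581, 0.646, 0.886, 0.569 and 0.623). The lowest limit of their 95% intervals was -0.74 (PDSS2) and the highest 0.46 (COQ2). Changes inside a gene's own interval remain compatible with these data.

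In SW620, with the same contrast of AFZC to 5-FU, PROM2 and COQ2 rose and AIFM2 fell, while 7 members did not pass the test. Among all tested genes 11.6% were called higher and 6.95% lower (18.6% in either direction). The members' median log2 fold change was -0.03, against 0.03 for all genes. No member's call in SW620 held in every setting.

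AIFM2 was at 146 and 167 CPM with 5-FU in SW620 and at 102 CPM in both AFZC libraries. Both 5-FU libraries were higher, and the groups did not overlap. The log2 fold change of -0.62 ± 0.142 (adjusted p = 0.00969) was matched or exceeded in size by 39.9% of tested genes. The adjusted p was 0.125 without replicate 2 of 5-FU, where the log2 fold change was -0.53. TMM factors were 0.867 and 0.816 in the 5-FU libraries and 1.11 and 1.07 in the AFZC libraries of SW620. With library sizes only, the median of all genes moved up by 0.38 on the log2 scale and AIFM2 was at -0.24 (adjusted p = 0.225), still below that shifted median.

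COQ2 (chromosome 4, 83261536 to 83284914) was at 5.51 and 4.71 CPM with 5-FU in SW620 and at 8.16 and 10.1 CPM with AFZC. Both AFZC libraries were higher, a log2 fold change of 0.84 ± 0.26 (adjusted p = 0.0398). Over all 15 alternatives the log2 fold change was 0.68 to 1.21. The call was lost in 7 of them, such as the fit without replicate 2 of SW620 5-FU (log2 fold change 0.73). It was also lost without either HCT116 5-FU library, without replicate 1 of SW620 5-FU, without replicate 2 of SW620 AFZC, in a fit of SW620 alone and with the replicate number as a block. PDSS2, which acts one step earlier, was at 16.3 and 14.4 CPM with 5-FU and at 14.5 and 11.7 with AFZC (log2 fold change -0.23, interval -0.72 to 0.27, adjusted p = 0.535).

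PROM2 was barely expressed in SW620, with 8 and 6 counts in the 5-FU libraries and 39 and 22 with AFZC. These are 0.275 and 0.181 CPM against 1.1 and 0.614. The log2 fold change was 1.90 ± 0.417 (adjusted p = 0.00764), and both AFZC libraries were above both 5-FU libraries. The call was lost without replicate 2 of 5-FU (adjusted p = 0.0847), without replicate 1 of AFZC (adjusted p = 0.0609, log2 fold change 1.44) and in a fit of SW620 alone (adjusted p = 0.0765).

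GCH1 was at 39.6 and 40.9 CPM with 5-FU and at 57.3 and 51.7 with AFZC in SW620. Its log2 fold change of 0.44 ± 0.196 (interval 0.01 to 0.86) did not pass the test (adjusted p = 0.14). MBOAT2 was at 162 and 206 CPM with 5-FU and at 133 and 129 with AFZC, a log2 fold change of -0.49 ± 0.181 (adjusted p = 0.0766). It was called lower without the low-count filter (adjusted p = 0.0333) and without replicate 1 or 2 of HCT116 AFZC (adjusted p = 0.0352 and 0.0355). DHODH was at 16.8 and 12.2 CPM with 5-FU and at 17.1 and 21 with AFZC (log2 fold change 0.39, interval -0.10 to 0.89, adjusted p = 0.258). VKORC1L1, MBOAT1 and NFS1 had log2 fold changes of 0.17, -0.26 and -0.23 (adjusted p = 0.481, 0.56 and 0.4). With library sizes only, GCH1, DHODH and VKORC1L1 were called higher (log2 fold changes 0.82, 0.76 and 0.55), beside the shift of 0.38 in the median of all genes.

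**Figure D2:**
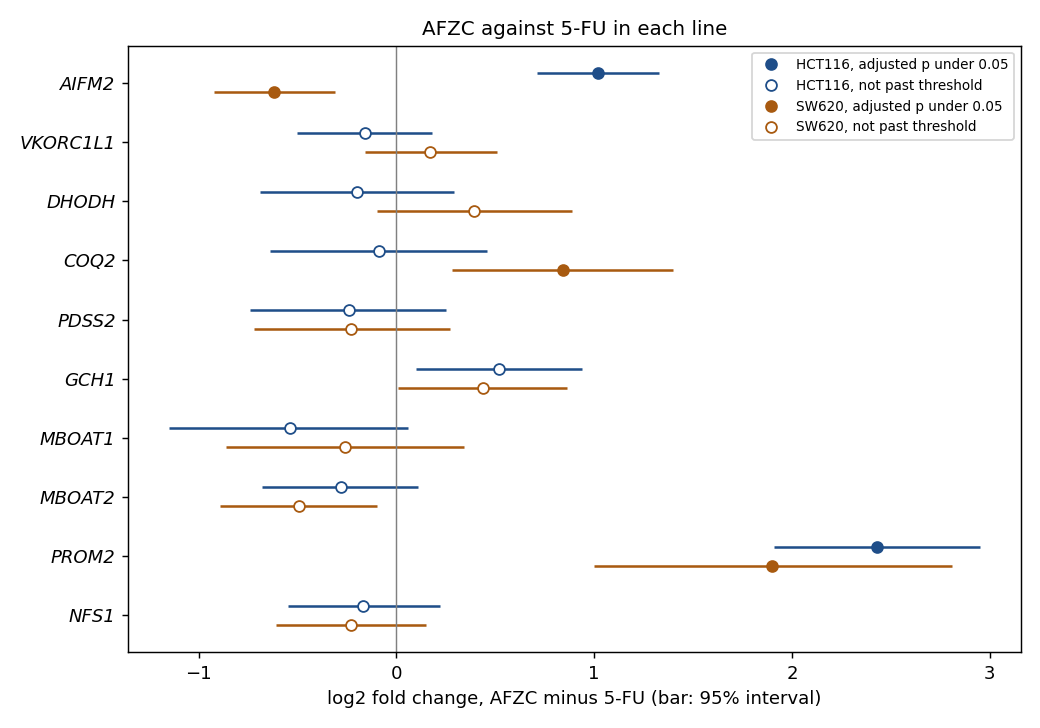
Log2 fold change of AFZC against 5-FU for each member in HCT116 (blue) and SW620 (orange). Bars are 95% intervals and filled points have an adjusted p under 0.05. AIFM2 lies at 1.02 in HCT116 and -0.62 in SW620, and PROM2 is to the right of 0 in both.

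**Figure D3:**
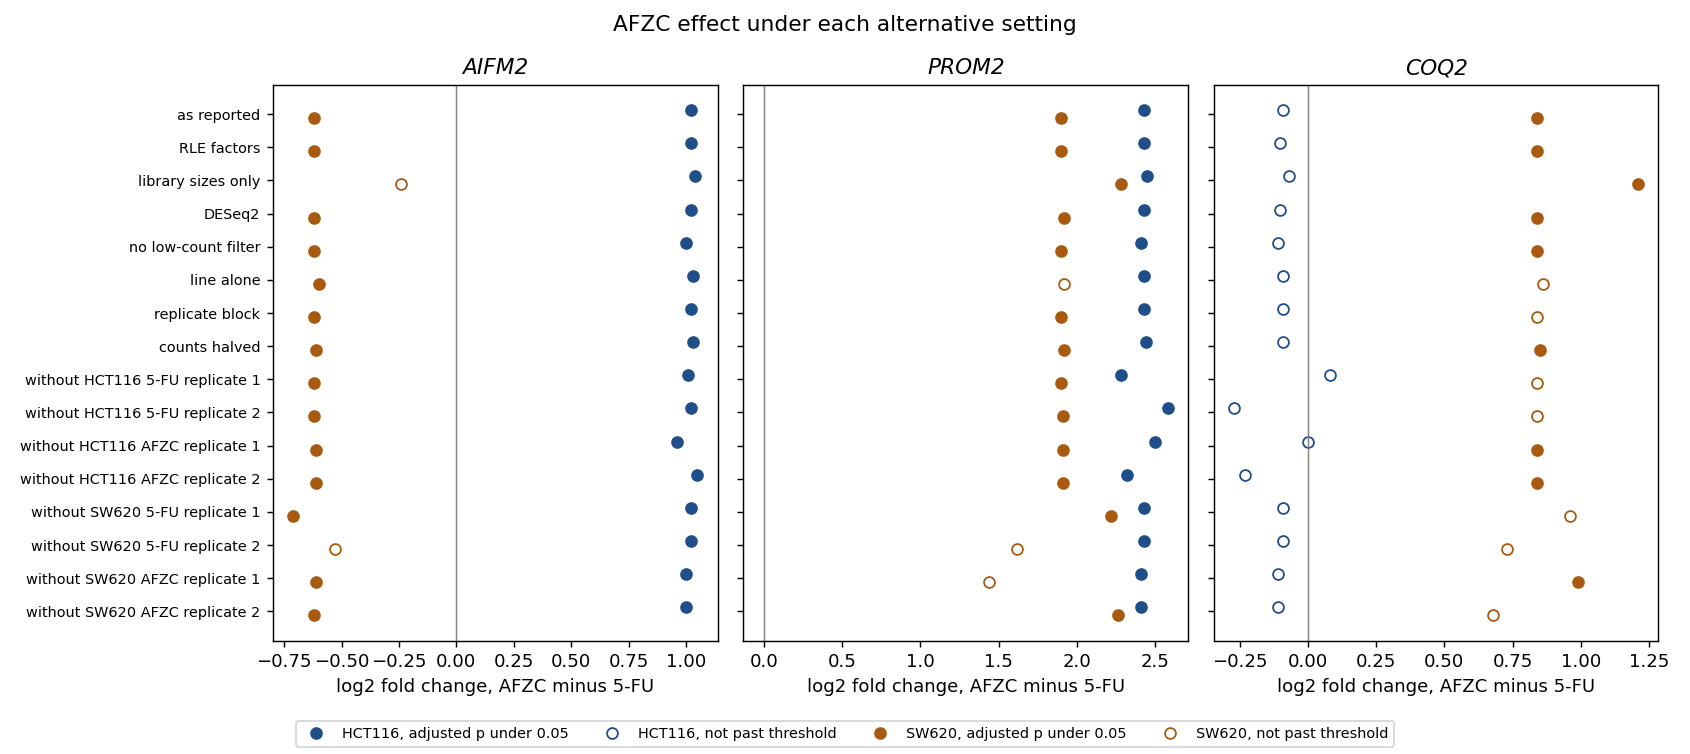
Log2 fold change of AFZC against 5-FU for AIFM2, PROM2 and COQ2 under the reported fit and 15 alternative settings. Filled points have an adjusted p under 0.05. In HCT116 the points of AIFM2 and PROM2 stay filled throughout, and in SW620 each of the 3 genes has open points.

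The effects of AFZC in the 2 lines were then compared directly. AIFM2 was the 1 member of 10 whose effect differed between the lines, against 9.78% of all tested genes (4.14% with a lower effect in SW620). That share of the members lies near the background. The difference, SW620 minus HCT116, was -1.64 ± 0.202 on the log2 scale (adjusted p = 0.000524). It kept its call in all 14 alternatives (-1.73 to -1.28, highest adjusted p 0.00801). Of the 1254 genes called higher in HCT116, 82 were called lower in SW620 (6.54% of the former and 5.52% of the 1486 genes lower in SW620), AIFM2 among them. PROM2 was 1 of 257 genes called higher in both lines (20.5% of the HCT116 calls and 10.4% of the SW620 calls).

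For the other 9 members the difference did not pass the test. COQ2 had a difference of 0.93 (interval 0.15 to 1.72, adjusted p = 0.127) and PROM2 one of -0.53 (interval -1.67 to 0.61, adjusted p = 0.594). The intervals of PDSS2 (-0.68 to 0.71) and GCH1 (-0.68 to 0.52) were centred near 0. For DHODH, VKORC1L1, MBOAT1, MBOAT2 and NFS1 the differences were 0.59, 0.34, 0.28, -0.21 and -0.06 (adjusted p = 0.277, 0.378, 0.725, 0.679 and 0.94). With library sizes only COQ2 passed (1.28, adjusted p = 0.0383).

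The lines were also compared under each agent. These comparisons share their libraries with the treatment comparisons, so the values are set side by side only. Under 5-FU, AIFM2 and MBOAT2 were higher in SW620 and PROM2, COQ2 and DHODH lower, 5 of 10 members where 54.8% of all genes were called (26.5% higher and 28.2% lower). Under AFZC, AIFM2, MBOAT2 and VKORC1L1 were higher and PROM2 lower, 4 of 10 where 49.3% were called (25.1% higher and 24.2% lower). Both shares lie near the background.

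The gap of AIFM2 between the lines was 2.40 ± 0.149 on the log2 scale under 5-FU (5.28-fold, adjusted p = 4.19e-08) and 0.76 ± 0.142 under AFZC (1.69-fold, adjusted p = 0.000709). Its order was thus HCT116 with 5-FU, HCT116 with AFZC, SW620 with AFZC and SW620 with 5-FU, and each neighbouring pair passed its test. MBOAT2 was 3.97-fold higher in SW620 under 5-FU (log2 fold change 1.99, adjusted p = 1.8e-06) and 3.43-fold under AFZC (1.78, adjusted p = 5.93e-06). Every SW620 library, from 129 to 206 CPM, was above every HCT116 library, from 31.5 to 46.8 CPM. Its paralog MBOAT1 had 3.38 to 6.43 CPM in all libraries and passed neither comparison (adjusted p = 0.388 and 0.104).

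PROM2 was lower in SW620 by log2 fold changes of -5.72 under 5-FU (adjusted p = 3.47e-08) and -6.25 under AFZC (adjusted p = 5.74e-09). The SW620 AFZC libraries, at 1.1 CPM and below, did not reach the HCT116 5-FU libraries. COQ2 had a log2 fold change of -1.03 under 5-FU (adjusted p = 0.00461) and -0.10 under AFZC (adjusted p = 0.768). For DHODH the values were -0.83 (adjusted p = 0.00783) and -0.24 (adjusted p = 0.411). Both calls under 5-FU were lost without replicate 1 of HCT116 5-FU (adjusted p = 0.0559 for COQ2 and 0.1 for DHODH), and that of DHODH also without replicate 2 of SW620 5-FU (adjusted p = 0.0994).

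VKORC1L1 was at 64.2 and 75.6 CPM in HCT116 with AFZC and at 92.7 and 115 in SW620 with AFZC, a log2 fold change of 0.57 (adjusted p = 0.0084) against 0.24 under 5-FU (adjusted p = 0.214). The former call was lost without replicate 1 of HCT116 AFZC or replicate 2 of SW620 AFZC (adjusted p = 0.0673 and 0.0744). GCH1 and PDSS2 did not differ beyond their spread between the lines, with log2 fold changes of 0.02 and -0.13 under 5-FU and -0.06 and -0.12 under AFZC. NFS1 was at 23.2 and 19.1 CPM in HCT116 and 27.9 and 28.5 in SW620 with 5-FU (log2 fold change 0.41, adjusted p = 0.0644). Under AFZC its libraries were at 18.9 and 18.8 against 24 CPM in both (0.35, adjusted p = 0.118).

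**Figure D4:**
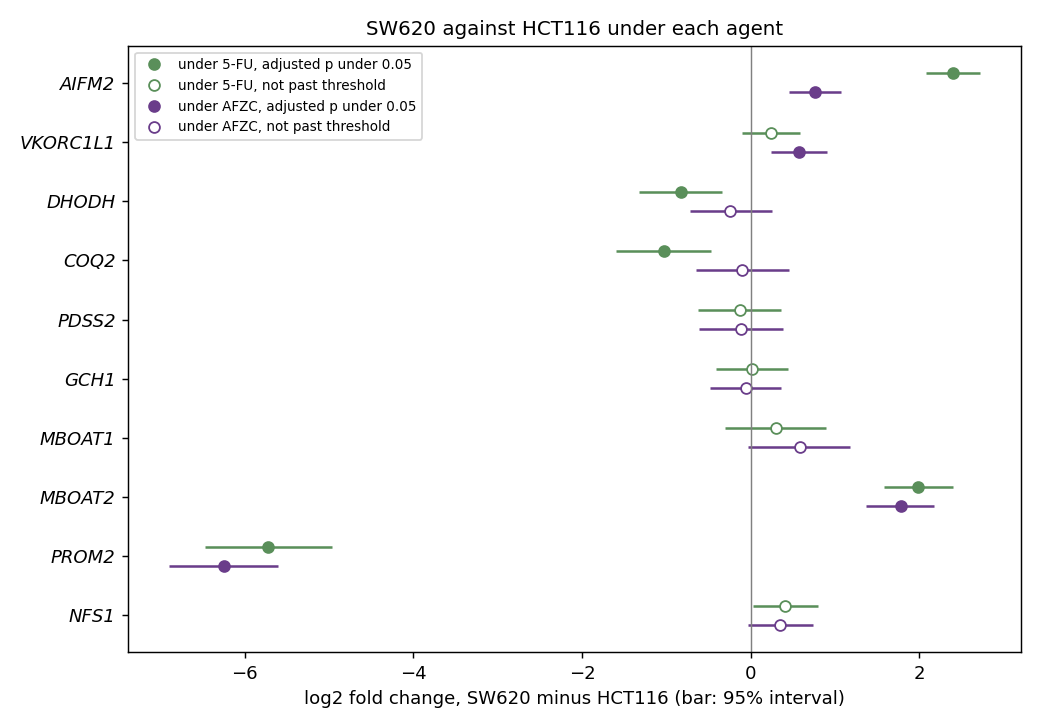
Log2 fold change of SW620 against HCT116 for each member under 5-FU (green) and under AFZC (purple). Bars are 95% intervals and filled points have an adjusted p under 0.05. PROM2 lies near -6 under both agents, MBOAT2 near 2, and AIFM2 at 2.40 and 0.76.

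The genes that act beside the members were counted by list. Each count stands beside 5.87% of all tested genes called higher and 3.74% lower in HCT116, and 11.6% higher and 6.95% lower in SW620, with medians of 0 and 0.03 over all genes. The lists hold 5 to 19 tested genes, so 1 call is a large share of a list, and nothing is read from the counts about a list as a whole. Of 9 tested quinone reductases and quinone users other than the members, 1 rose and 2 fell in HCT116 and 1 fell in SW620 (medians -0.35 and -0.20). NQO1, a cytosolic quinone reductase, fell in both lines. In HCT116 it was at 533 ± 4.47 CPM with 5-FU and 233 ± 4.37 with AFZC (log2 fold change -1.20 ± 0.173, adjusted p = 0.00139). In SW620 it went from 872 ± 82.9 to 430 ± 67.4 CPM (-1.02 ± 0.172, adjusted p = 0.00159). Both calls held in all 15 alternatives. TP53I3, a p53-induced quinone oxidoreductase, rose in HCT116 by 3.80 on the log2 scale (adjusted p = 3.2e-06) and was at 3.55 ± 0.578 and 4.02 ± 0.441 CPM in SW620 (adjusted p = 0.603). CDKN1A, a p53 target, rose in both lines (log2 fold changes 3.33 and 0.71, adjusted p = 7.94e-06 and 0.0302). Its SW620 call was lost in 4 of 15 alternatives, up to an adjusted p of 0.247 when replicate 1 of SW620 5-FU was left out.

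Of 13 other genes of coenzyme Q synthesis, 2 rose and 0 fell in HCT116, and 1 rose and 1 fell in SW620 (medians -0.03 and 0.07). COQ10B and COQ8A, a lipid-binding chaperone and an atypical kinase of the pathway, rose in HCT116 by 0.73 and 0.62 (adjusted p = 0.0152 and 0.0439), with calls lost in 3 and 6 of 15 alternatives, among them both 5-FU libraries left out in turn and replicate 1 of AFZC. COQ10A rose in SW620 by 1.17 (adjusted p = 0.0047, but 0.054 when 5-FU replicate 2 was left out).

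Around GCH1, 9 tetrahydrobiopterin genes were tested, with 1 higher and 1 lower in HCT116 and 1 higher and 2 lower in SW620 (medians -0.36 and -0.21). QDPR, which recycles the cofactor, rose in HCT116 by 0.72 (adjusted p = 0.0105, but 0.0974 and 0.1 with 5-FU replicate 1 or 2 left out). DHFR2 was lower there by a log2 fold change of -1.20 (adjusted p = 0.0497, lost in 5 of 15 alternatives). PCBD1, another cofactor recycling enzyme, was lower in SW620 by -0.55 (adjusted p = 0.0231, lost in 5 of 15). GCHFR, the feedback regulator of GCH1, had at most 2.11 CPM in every library and passed in neither line (adjusted p = 0.41 and 0.613). Beside DHODH, where the medians were 0.18 and 0.46, 1 of 7 pyrimidine synthesis genes rose in HCT116 (CTPS1, CTP synthase, by 1.34, adjusted p = 0.00113) and 2 rose in SW620 (TYMS by 2.63, adjusted p = 6.7e-05, and UCK1, a uridine-cytidine kinase, by 0.75, adjusted p = 0.011, which 5-FU replicate 1 or 2 left out turned into 0.0657 or 0.0973).

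Among 5 vitamin K genes beside VKORC1L1, 2 rose in each line and 0 fell (medians 0.37 and 0.67), against 5.87% of all genes called higher in HCT116 and 11.6% in SW620. CYP4F2, a vitamin K hydroxylase, rose in HCT116 by 2.93 on the log2 scale (2.08 ± 0.32 against 15.9 ± 6.1 CPM, adjusted p = 0.000749) and in SW620 from 1.09 ± 0.377 to 5.13 ± 1.5 CPM (2.22, adjusted p = 0.00215). Both calls held in all 15 alternatives. CYP4F11, a related hydroxylase, rose in HCT116 by 1.44 (adjusted p = 0.0255, lost in 3 of 15), and GGCX, the vitamin K-dependent carboxylase, rose in SW620 by 0.67 (adjusted p = 0.0313, lost in 6 of 15). VKORC1, the paralog of VKORC1L1, was at 5.03 and 3.36 CPM in HCT116 and 4.42 and 3.29 in SW620 (adjusted p = 0.258 and 0.361).

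Beside MBOAT1 and MBOAT2, 11 listed acyltransferases were tested (medians 0.32 and 0.14), and GPAT3, GPAT4 and AGPAT3 among them are not of the MBOAT family. Of the 11, 1 rose in HCT116 (SOAT1, by 0.55, adjusted p = 0.0466, lost in 9 of 15 alternatives). MBOAT7, which favours arachidonate, fell in SW620 by 0.61 (adjusted p = 0.0133, but 0.141 when 5-FU replicate 2 was left out and 0.275 with library sizes only). LPCAT3, which loads polyunsaturated chains, passed in neither line (adjusted p = 0.615 and 0.266, the latter 0.0218 with library sizes only).

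A mixed list of 10 genes beside PROM2 covered prominins, ferritin, iron export and vesicles. Of these, 2 rose and 1 fell in HCT116, and 1 rose and 2 fell in SW620 (medians 0.20 and -0.16). RAB27A, a vesicle GTPase, was lower with AFZC in HCT116, at 10.9 ± 1.95 and 6.12 ± 1.47 CPM (adjusted p = 0.0424, up to 0.253 without replicate 2 of 5-FU), and rose in SW620 from 12.5 ± 0.442 to 28.9 ± 1.11 CPM (adjusted p = 0.00339). Its paralog RAB27B rose in HCT116 from 5.3 ± 0.284 to 19.8 ± 6.3 CPM (adjusted p = 0.00506, but 0.0967 when 5-FU replicate 1 was left out) and had 0 counts in all 4 SW620 libraries. FTL, the ferritin light chain, fell in SW620 from 596 ± 102 to 297 ± 71.8 CPM (adjusted p = 0.0162, but 0.135 when 5-FU replicate 2 and 0.105 when AFZC replicate 1 was left out).

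Of 19 tested genes of iron-sulfur cluster assembly beside NFS1, 2 rose and 0 fell in HCT116, and 0 rose and 3 fell in SW620 (medians -0.04 and 0.05). FDXR, ferredoxin reductase, rose in HCT116 by 1.71 on the log2 scale (85.2 ± 7.04 against 279 ± 9.18 CPM, adjusted p = 0.000178) and ISCU, the scaffold protein, from 65.1 ± 5.6 to 123 ± 0.0951 CPM (adjusted p = 0.00284, but 0.0525 when 5-FU replicate 2 was left out). LYRM4, the partner of NFS1, fell in SW620 by 0.87 (adjusted p = 0.0137, but 0.107 when 5-FU replicate 1 was left out and 0.111 with library sizes only). In the same SW620 libraries NFS1 was at 27.9 and 28.5 CPM with 5-FU and at 24 CPM in both AFZC libraries.

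Other genes that protect lipids without glutathione had 1 of 12 lower in HCT116 and 2 lower in SW620 (medians -0.06 and -0.15). SCD, which makes monounsaturated fatty acids, was lower in both lines (log2 fold changes -0.92 and -1.08, adjusted p = 0.0273 and 0.0076), with adjusted p up to 0.184 in HCT116 (without replicate 1 of AFZC) and 0.0783 in SW620 (without replicate 2 of 5-FU). PRDX6, a peroxiredoxin, fell in SW620 by 0.69 (adjusted p = 0.0119, lost in 3 of 15). Of 6 genes of the AIFM family and of protein myristoylation (medians 0.08 and -0.11), 0 passed in HCT116 and METAP2, a methionine aminopeptidase, fell in SW620 by 0.59 (adjusted p = 0.0136, lost in 4 of 15). In the glutathione axis (medians 0.13 and -0.42) 0 of 7 genes passed in HCT116 and 1 fell in SW620, GSR, glutathione reductase, by 0.48 (adjusted p = 0.0351, lost in 8 of 15 alternatives, up to 0.65 with library sizes only). GPX4 was at 203 ± 30.2 and 173 ± 25.1 CPM in HCT116 and at 257 ± 22.4 and 189 ± 1.06 in SW620 (adjusted p = 0.446 and 0.0812). SLC7A11, the cystine transporter, had log2 fold changes of -1.26 and -1.07 (adjusted p = 0.128 and 0.135). Its AFZC libraries lay apart, at 10.8 and 19 CPM in HCT116 and 43.7 and 118 in SW620. Without replicate 1 of AFZC the SW620 value was -0.51, and without replicate 2 it was -1.96. In HCT116 the same omissions gave -0.92 and -1.75. It passed in 4 of 15 alternatives in HCT116 (adjusted p 0.00433 to 0.542 over all 15) and in 2 of 15 in SW620 (0.000955 to 0.428). Under 5-FU, 6 of the 7 glutathione genes were higher in SW620 than in HCT116 and 0 lower. Of the 10 members 2 were higher and 3 lower, beside 26.5% and 28.2% of all genes. Under AFZC, 3 of the 7 were higher and 0 lower. Of the members 3 were then higher and 1 lower, beside 25.1% and 24.2% of all genes.

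**Figure D5:**
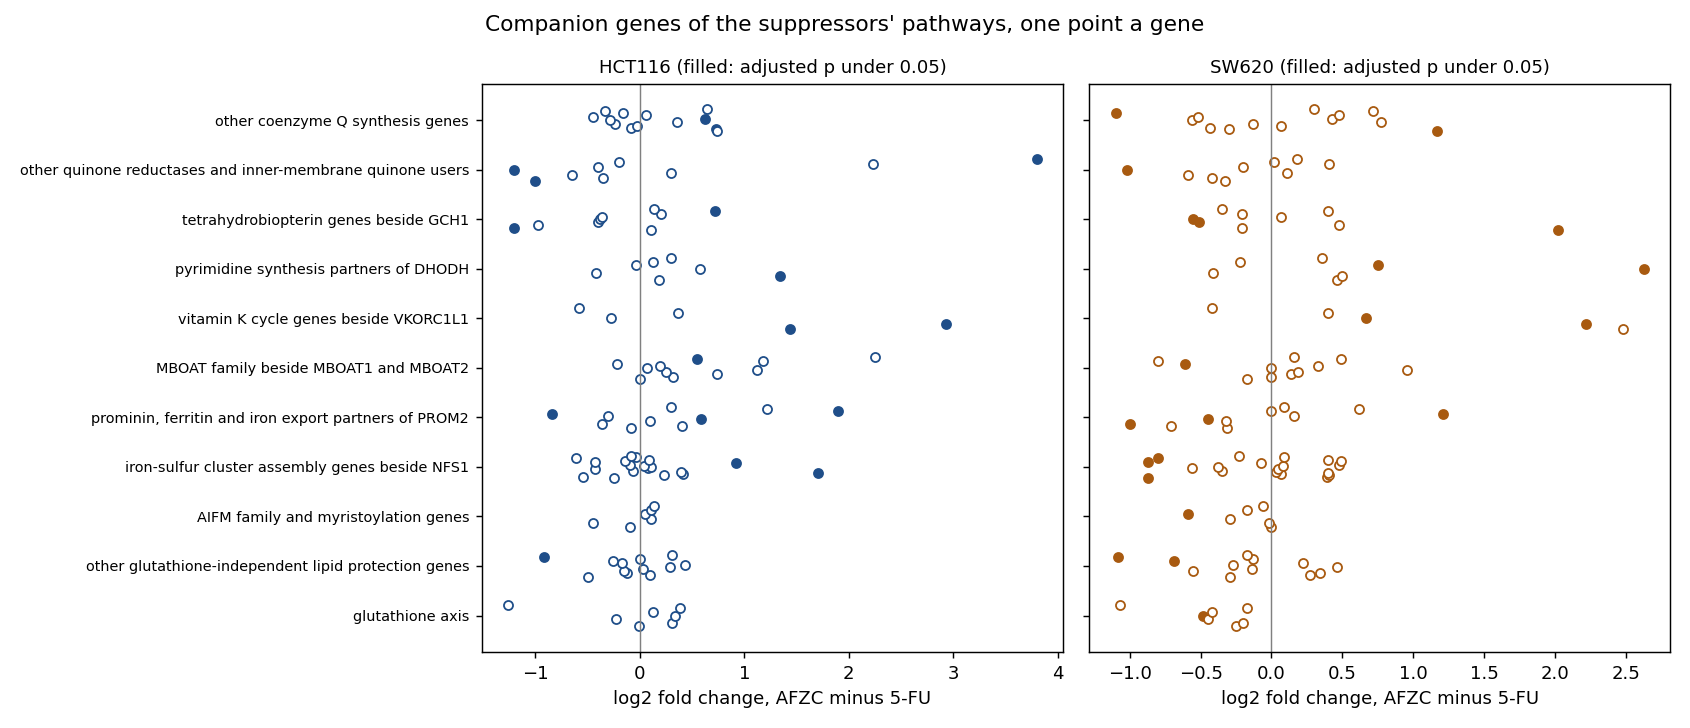
Log2 fold change of AFZC against 5-FU for the companion genes of each pathway, in HCT116 (left) and SW620 (right). Each point is 1 gene and filled points have an adjusted p under 0.05. In each line most points are open, and over all lists they scatter on both sides of 0. Single lists can lean: all 7 glutathione genes are below 0 in SW620, and 10 of 11 genes listed beside MBOAT1 and MBOAT2 are above 0 in HCT116.

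Across the 8 libraries, the genes whose log2 CPM was most like that of each member were found among 12218 genes. The libraries fall into 4 groups of 2 lines, so these correlations mostly describe group means and are given as a description. For AIFM2 they were STK10, BMP7 and MIR4435-2HG (Pearson r of 0.995, 0.995 and 0.994), and 1026 genes had r above 0.9. For PROM2 they were TATDN2, DSTYK and DIRC2 (0.997, 0.993 and 0.993, with 1243 genes above 0.9). GCH1 had 29 genes above 0.9, led by OASL, CDK5R2 and FAM222B (0.986, 0.979 and 0.956). PDSS2 had 3, RNGTT, PABPN1 and SORD (0.929, 0.91 and 0.909). The genes most like MBOAT2 were DGKE, TNKS1BP1 and TFE3, like MBOAT1 WDTC1 and TRAPPC6A, and like NFS1 TCEAL8, TALDO1 and PFDN5 (r of 0.978 to 0.997). For COQ2 they were GTF2IP13, POP5 and TRIM69, for DHODH SNAPC1, SUGP1 and SHARPIN, and for VKORC1L1 MIS12, VAPB and PHF5A (r of 0.976 to 0.991).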

How the data were processed

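The deposited values are raw counts by gene symbol, all 8 libraries side by side. Per the labels' protocols, poly(A) RNA was selected and libraries did not keep strand. Per the submitters' processing notes, the tools were HISAT2, STAR, featureCounts, FastQC, cutadapt, Trimmomatic, edgeR and DESeq2, on GRCh38. Which aligner made the counts, and all settings, are not stated by the sources used here. The ratio of genes at 2 counts to genes at 1 was 1.68 to 1.84, a pattern seen where both mates are counted, and halved counts were therefore 1 alternative. Exons of AIFM2, MBOAT1 and NFS1 overlap other genes over 0.214%, 2.34% and 6.26% of their length. Reads there cannot be assigned to 1 gene without strand. Part of the NFS1 overlap is with a gene on the same strand (AL109827.1, 0 counts), where strand would not help.

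Counts passing filterByExpr (minimum count 10) were scaled by TMM and fitted in edgeR 4.0.16 (R 4.3.3) with 1 robust quasi-likelihood model of 4 group means, which left 4 residual degrees of freedom. P-values are two-sided and Benjamini-Hochberg adjusted over all 21378 genes, with a threshold of 0.05. The standard error is the log2 fold change over the square root of F, and 95% intervals use the fit's total degrees of freedom. The common biological coefficient of variation was 19.9%. All groups share 1 estimate of the spread, though their replicates were not equally close. Chi-square per degree of freedom between the 2 libraries of a group was 58.7 (HCT116) and 53.9 (SW620) with AFZC. With 5-FU it was 26.5 and 23.3. Gene lengths, in bases, are those of the deposited table. The contrast of AFZC to 5-FU in HCT116 was run on simulated counts with known changes in well-counted genes. That run did not cover the other contrasts, low-count genes or unequal replicate spread between groups. Alternatives were RLE factors, library sizes only, DESeq2 1.42.0, no low-count filter, 1 line alone, the replicate number as a block, halved counts, and each library left out. With 1 library left in a group, that library is assumed to vary like the others.

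The members and lists were chosen with earlier results of these data known. All 10 members are named. From each companion list the text names the 2 called genes with the largest change in each treatment comparison, and GPX4, SLC7A11, NQO1, LPCAT3, VKORC1, GCHFR and CDKN1A are named whatever their result. Some genes that these rules select are not reported here. The most similar genes were the 3 with the highest Pearson correlation of log2 CPM (prior count 2) among genes with a mean log2 CPM of at least 1, leaving out members, clones and antisense names.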

Additional observations from a re-analysis of the deposited data

Results flagged for a closer look

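AIFM2 responded differently to AFZC in the 2 lines, by a test of the difference itself in edgeR's quasi-likelihood model. It was the 1 member of 10 to pass, a share near the 9.78% of all tested genes. A difference at least as large in either direction was seen in 18.1% of tested genes. The difference in log2 fold change, SW620 minus HCT116, was -1.64 (adjusted p = 0.000524), from a rise of 1.02 in HCT116 and a log2 fold change of -0.62 in SW620. Both AFZC libraries lay above both 5-FU libraries in HCT116 and below both in SW620. Such separation is common with 2 libraries a group, and members that passed in neither line showed it too. Left-out libraries gave values of the difference from -1.73 to -1.55, and library sizes only gave -1.28. The call of the fall in SW620 was lost in 2 of 15 alternatives.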

How the results depend on the processing

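Over the 10 members and 5 comparisons, 665 of 720 values under alternatives kept their direction and side of the threshold. That total includes values that passed neither in the reported fit nor in the alternative. The SW620 calls of AFZC against 5-FU were lost in 2 (AIFM2), 7 (COQ2) and 3 (PROM2) of 15 alternatives. With library sizes only, 5 members were higher and 0 lower in SW620 (5141 and 445 genes), 1 member had a higher effect in SW620 than in HCT116 (2455 genes higher and 430 lower), and 92% of SW620 calls were upward against 62.6%. Values that changed sign there and passed no test were PDSS2, MBOAT1 and NFS1 in SW620 (0.15, 0.12 and 0.15), GCH1, MBOAT2 and NFS1 in the difference between lines (0.28, 0.15 and 0.29) and VKORC1L1, GCH1 and MBOAT1 between lines under 5-FU (-0.06, -0.28 and -0.01). Without the low-count filter 2 members were lower in SW620, 1306 genes were lower in HCT116 and 1848 had a higher effect in SW620. In SW620 alone 0 members were higher. With the replicate block 1 was, COQ2 having lost its call. Over all genes, same-numbered libraries correlated by only -0.1 to 0.1 in their deviations. Such values do not show whether these libraries share a batch, which is not labelled. The cause of these changes was not tested.

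Leaving out 1 library gave 216 to 1509 genes higher and 89 to 1215 lower in HCT116, with 2 to 3 members higher. In SW620 it gave 1135 to 2703 and 448 to 1741 genes, with 0 to 2 members higher and 0 to 2 lower. For the difference between lines it gave 478 to 1521 and 279 to 1112 genes. Between lines under 5-FU it gave 4384 to 5764 genes higher and 4528 to 6387 lower, with 1 to 3 members lower. Under AFZC it gave 4493 to 5299 and 4316 to 5144 genes, with 2 to 3 members higher. Values that crossed 0, without passing a test, ran from -0.27 to 0.08 for COQ2, -0.40 to 0 for DHODH and 0 to 0.35 for LPCAT3 in HCT116, from -0.35 to 0.30 for GCH1, -0.42 to 0.08 for MBOAT2, -0.21 to 0.09 for NFS1 and -0.18 to 0.29 for PDSS2 in the difference between lines, from -0.02 to 0.04 for GCH1 under 5-FU, and from -0.26 to 0.06 for COQ2, -0.35 to 0.30 for GCH1 and -0.33 to 0.14 for PDSS2 between lines under AFZC. PROM2 in SW620 rests on 14 and 61 counts a group, which limits its precision.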
